A study of Mus musculus with 1646 samples.

Results

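Vascular smooth muscle cells (VSMC) of the adult mouse colon are described here as the cells whose sample label places them in cluster 3, which holds 29 cells of the Acta2GFP line, 30 of Cspg4dsRED and 82 of PdgfrbGFP, together 8.57% of the 1646 colon cells of the series. The authors had drawn 8 clusters with pagoda2 from the same counts: the other clusters taken into the comparisons are pericytes (cluster 4, 8.63% of cells), interstitial smooth muscle cells (interstitial SMC, cluster 8, 56 cells) and fibroblasts (clusters 1, 2, 5, 6 and 7, 1307 cells). VSMC were described across genes against these 3 classes, with the reporter line as the replicate.

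VSMC wrap arteries, arterioles and larger veins and set the width of the vessel by contracting. Calcium that enters through channels of the plasma membrane or leaves the sarcoplasmic reticulum binds calmodulin, which switches on myosin light chain kinase, and phosphorylated myosin then pulls on filaments of smooth muscle actin. Potassium channels hold the membrane potential that gates calcium entry, and receptors for transmitters and hormones adjust the system. Pericytes, the other mural cells, lie on capillaries and small venules, while the interstitial smooth muscle cells of the gut lie outside the vessel wall. Signalling from endothelial Jagged ligands to the Notch3 receptor of mural cells is known to maintain the arterial smooth muscle state.

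Each cell was one SmartSeq2 library, in which poly(A) RNA of a sorted cell is copied to full-length cDNA. All mice were male, 10 to 20 weeks old and on the C57Bl6/J background, and cells were sorted as negative for the endothelial protein CD31. The 4 lines express a fluorescent protein under the control of the named gene: PdgfrbGFP, Acta2GFP and Cspg4dsRED are transgenes, and PdgfraGFP places a nuclear GFP at the *Pdgfra* locus. Tissue of Acta2GFP mice was digested with elastase in addition to the enzymes used for the other lines, and the study also mentions combined strains. The labels name no mouse, so the cells of a plate and the plates of a line may share animals, and line, enzyme and plate cannot be told apart. P-values between classes therefore measure the spread between these lines, part of which may be technical. P-values of the comparison of VSMC between lines measure the spread between plates, which may share animals.

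VSMC were found in 3 of the 4 lines and on 7 of the 9 plates. Acta2GFP gave 29 VSMC among its 567 cells (5.11%, 95% Clopper-Pearson interval 3.45 to 7.26), 11 on plate colon_513s and 18 on plate colon_682s. Cspg4dsRED gave 30 among 91 (32.97%, 23.5 to 43.6), all on plate colon_516s. PdgfrbGFP gave 82 among 761 (10.8%, 8.66 to 13.2), with 7 on plate colon_073s, 1 on colon_075s, 32 on colon_685s and 42 on colon_686s. PdgfraGFP gave 0 VSMC among its cells, which allows a share of up to 1.61%. Which cells reach a plate is set by the reporter and the sort gate, so these shares do not give the makeup of the tissue. Counts on genes ran from 49029 to 1194334 per VSMC (median 359677, with 5371 genes detected at the median), against a median of 209805 counts and 4422 genes in pericytes. No well was shared between libraries and no pair of VSMC had identical counts.

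The label was checked against 6 markers. Levels are given as counts per 500000 counts of a cell, averaged over the cells of a line. They are not corrected for gene length and are compared between cells, not between genes. *Myh11*, the smooth muscle myosin heavy chain (chromosome 16, 14194535 to 14291372, GRCm38), was at 1861 in Acta2GFP, 2144 in Cspg4dsRED and 1563 in PdgfrbGFP, and *Acta2*, smooth muscle α-actin (chromosome 19, 34241090 to 34255590), at 4392, 4092 and 2280. A count of both genes was present in every VSMC. *Cnn1* (chromosome 9, 22099216 to 22109630), which encodes the actin-binding protein calponin, was at 433.95, 236.9 and 258.5 and had a count in 82.98% of the VSMC. *Pln* (chromosome 10, 53337667 to 53345987), for phospholamban, the regulator of the calcium pump of the sarcoplasmic reticulum, was at 698, 432.4 and 517, with a count in 96.5%. *Notch3* (chromosome 17, 32120820 to 32166852) was at 284.9, 390 and 313.9, with a count in 94.3%, and the olfactory receptor gene *Olfr558* (chromosome 7, 102702215 to 102712064) at 264.4, 286.8 and 342.5, with a count in 87.2%. All 6 markers were counted in 71.6% of VSMC (63.4 to 78.9), and 2 VSMC had a count of 3 or fewer of them. All 6 were also counted in 42.96% of pericytes (34.7 to 51.5), 1 of 56 interstitial SMC and 40 of 1307 fibroblasts, and 5 or more in 91.5% of VSMC and 73.2% of pericytes, in shares that were not thinned to equal depth. With each cell thinned to 50000 counts, which left out 1 shallower VSMC, the share with a count was 72.9% for *Cnn1* and 80% for *Olfr558*. *Notch3* was higher in both pericyte lines than in any VSMC line, and *Olfr558*, *Acta2* and *Myh11* were also present in pericytes. *Myh11*, *Acta2* and *Cnn1* were present in interstitial SMC, with *Acta2* and *Cnn1* above every VSMC line. *Pln* was at 3.38 and 9.55 in the pericytes of the Cspg4dsRED and PdgfrbGFP lines and at 2.55 in interstitial SMC.

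**Figure D1:**
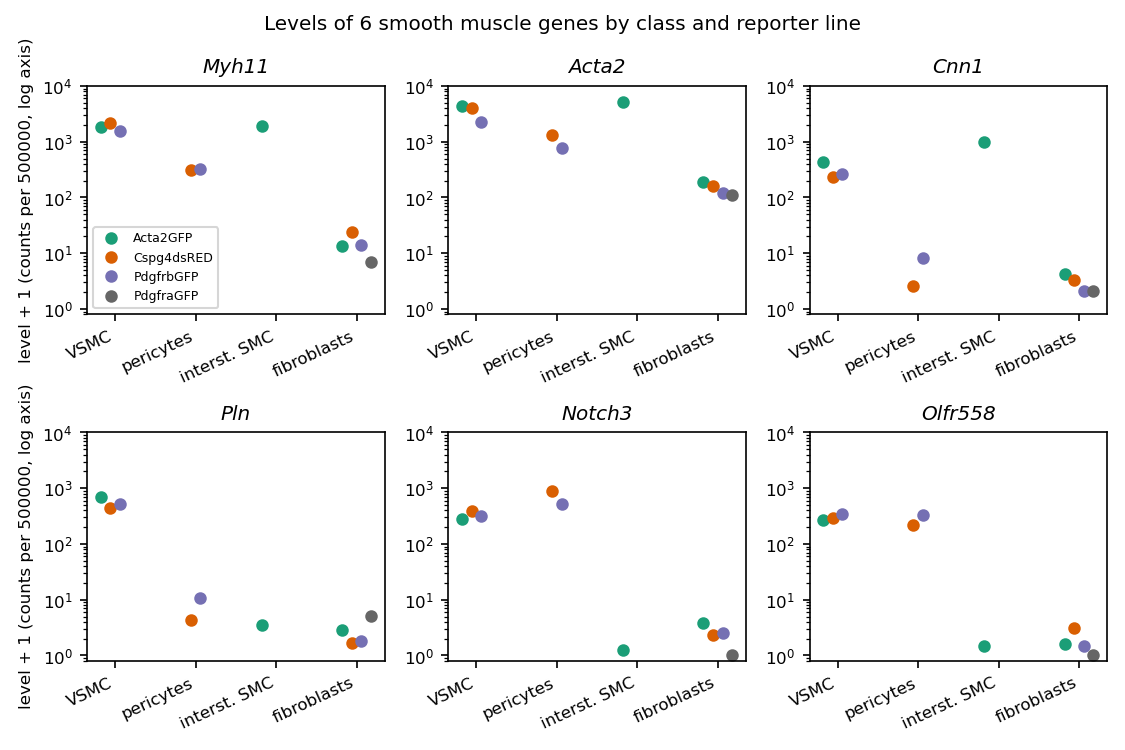
Level + 1 (counts per 500000, log axis) of the 6 VSMC markers in each class, with 1 point for each reporter line that holds at least 10 cells of the class. The 3 VSMC points of *Pln* lie between 432.4 and 698, and its pericyte and interstitial SMC points lie below 10; *Cnn1* has its highest point in interstitial SMC (985).

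Markers of cells that the sort or the authors' filter should remove were low in VSMC. The summed level of 12 endothelial markers was 352.02 to 421.75 over the 3 lines, of which *Esam*, an adhesion molecule that mural cells also carry, made up 331.5 to 398.6. *Pecam1* was at 3.92 to 7.57, and *Cdh5*, *Kdr*, *Tie1* and *Ptprb* were each at 1.504 or less. The immune markers summed to 2.09 to 22.6, the epithelial markers to 2.56 to 20.1, and the glial and neuronal markers to 1.22 to 4.98. Fibroblast markers (8 genes) summed to 864 in the VSMC of Acta2GFP, 151.4 in Cspg4dsRED and 290 in PdgfrbGFP, against 7044 to 9493 in fibroblasts. In Acta2GFP the median VSMC was at 577.8 and the highest at 7767, a sum within the range of the fibroblast lines. Pericyte markers (15 genes) summed to 1760 to 2605 in VSMC and 7666 to 8080 in pericytes. Of the genes of interstitial cells of Cajal, *Ano1* was at 268.1, 363.8 and 218.8, while *Kit* was at 0, 0 and 26.5. In PdgfrbGFP the median VSMC was at 0 for *Kit*, and 2 of 82 VSMC were at 10 or more, the highest at 1746.

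Against pericytes, VSMC were higher in genes for the calcium pump regulator, the thick filament and its kinase, a purinergic receptor and voltage-gated and calcium-activated potassium channels, and lower in 2 laminin and 2 collagen IV genes and in the subunits of the ATP-sensitive potassium channel. The VSMC of the 3 lines (3 sums of counts) were compared with pericytes of Cspg4dsRED and PdgfrbGFP (2 sums) by edgeR's quasi-likelihood test. Of 16328 genes tested, 66 were higher in VSMC (0.404%) and 43 lower (0.263%) at an adjusted p under 0.05. Since the clusters came from the same counts, an adjusted p here describes how evenly a difference recurs over lines and is not independent evidence of it. With the line as a block, 0.649% of the genes were called higher and 0.386% lower, and limma on log2 means per cell called no gene in either direction, so every call named below for this comparison was lost with limma. Without Acta2GFP, 0.147% were higher and 0.122% lower, and the calls of *Ednrb*, *Rgs5*, *Nrip2*, *Itga3*, *Col4a1*, *Col4a2*, *Art3*, *Plac8* and *Ly6e*, described below, were among those lost.

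*Pln* had the smallest adjusted p of the comparison, with a log2 fold change (FC) of 7.21 (SE 0.576, adjusted p = 0.000625, edgeR). *Asb2*, which encodes a subunit of a ubiquitin ligase of muscle cells that targets filamins, was at 222.6, 200 and 319.2 in the VSMC of Acta2GFP, Cspg4dsRED and PdgfrbGFP and at 0.829 and 3.26 in the pericytes of the latter pair (log2 FC 7.71, SE 0.747, adjusted p = 0.000883). *Susd5*, a gene for a membrane protein with a sushi domain, was at 164.01, 172.05 and 140 against 1.60 and 1.12 (log2 FC 7.48, adjusted p = 0.000883). *Ldb3*, for a protein that anchors filaments at the Z-disc of striated muscle, was at 147.5, 171.5 and 95.6 against 1.83 and 2.91 (log2 FC 6.64), and *Sorbs2*, for an adaptor of the actin cytoskeleton, at 940, 972 and 557 against 5.02 and 24.1 (log2 FC 6.10). *Sgca*, for α-sarcoglycan of the dystrophin complex, reached 133.3, 79.9 and 97.7 against 5.88 and 2.25 (log2 FC 5.62), and *Adamtsl1*, a secreted protein of the ADAMTS-like family, 346.5, 395.6 and 213.6 against 4.54 and 11.1 (log2 FC 5.97). The means of the VSMC and pericyte lines did not overlap for these genes, which were named for their large differences, so this is a description only. Single cells did overlap: 65 VSMC were under 10 for *Susd5*, and 10 were for *Pln*.

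Of the 25 genes of the contractile apparatus tested, 4 passed the test as higher in VSMC and 0 as lower, while the fitted difference was positive for 24 (median log2 FC 1.69, against 0.03 over all genes tested). The 4 were *Cnn1* (log2 FC 6.57, SE 0.713, adjusted p = 0.0018), *Myh11* (2.67, SE 0.371, adjusted p = 0.00777), *Mylk*, the myosin light chain kinase (2.09, SE 0.350, adjusted p = 0.0208), and *Ppp1r12a*, the targeting subunit of myosin phosphatase (2.32, SE 0.412, adjusted p = 0.0276). *Mylk* was at 1346, 1503 and 1282 in VSMC and at 343.8 and 321.9 in pericytes, and *Ppp1r12a* at 533, 443.6 and 405.4 against 86.4 and 109.5. *Acta2* was higher in every VSMC line than in either pericyte line (1323 and 771) but did not pass (log2 FC 1.58, adjusted p = 0.161), and passed with the line as a block (1.56, adjusted p = 0.00167). Without Acta2GFP *Cnn1* alone of the 25 was called. Without Cspg4dsRED pericytes have no replicate, so no count of calls is given. The block called 13 of the 25, *Tagln* (transgelin) among them at an adjusted p of 0.00782 against 0.144 without it. *Cald1*, for caldesmon, was at 690, 580 and 867 in VSMC and 755 and 836 in pericytes, a difference of 0.03 on the log2 scale. Summed over the list, the level was 21106 ± 3147 in VSMC (SD, n = 3 lines) and 8259 ± 1290 in pericytes (n = 2).

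Serum response factor and its partner myocardin act on smooth muscle genes through the CArG box, a sequence of CC, 6 A or T bases and GG. Promoter windows of the 250 bases before the start were taken from RefSeq (GRCm38.p6) for 22 of the 25 contractile genes. A CArG box on either strand was present in 3 of their 26 promoters (11.5%: *Myl6*, *Myl9* and *Vcl*) and in 1.47% of the 32851 promoters of all genes. The sequences of *Myl9*, the regulatory light chain of smooth muscle myosin, and *Vcl*, vinculin, are shown from 250 to 51 bases before the start as the clearest examples in this list, with the CArG box in capitals. *Myl9* lies at chr2:156775214-156775413 and *Vcl* at chr14:20929148-20929347, both on the plus strand.
Myl9: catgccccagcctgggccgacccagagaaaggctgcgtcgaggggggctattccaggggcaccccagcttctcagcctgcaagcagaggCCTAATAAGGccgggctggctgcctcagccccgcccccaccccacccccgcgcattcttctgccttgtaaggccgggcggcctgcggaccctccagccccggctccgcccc
Vcl: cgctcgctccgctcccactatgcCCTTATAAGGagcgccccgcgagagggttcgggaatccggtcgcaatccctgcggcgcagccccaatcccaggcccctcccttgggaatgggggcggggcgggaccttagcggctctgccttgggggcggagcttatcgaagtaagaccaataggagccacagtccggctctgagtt
*Myl9* was at 2665, 2409 and 1511 in VSMC against 1410 and 1007 in pericytes (log2 FC 0.78) and *Vcl* at 303.6, 320 and 193.3 against 607 and 208.7 (−0.06). Neither passed the test, and the VSMC and pericyte lines of *Vcl* overlapped. A match of letters is a description of the window and does not show that a factor binds there.

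Of the 24 calcium genes tested, 1 passed as higher in VSMC than in pericytes, *Pln*, and 0 as lower. *Atp2a2*, the calcium pump that phospholamban inhibits, was at 350, 500 and 282.9 in VSMC and 76.03 and 65.3 in pericytes (log2 FC 2.31, adjusted p = 0.0733, and 0.0133 with the line as a block). *Cacna1c*, the pore of the L-type calcium channel, was at 53.1, 87.4 and 38.2 in VSMC and 78.3 and 41.4 in pericytes, so the classes overlapped.

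Among 14 potassium channel genes tested, 3 were called higher and 2 lower. The 3 were *Kcnab1*, a β subunit of voltage-gated channels, at 182.3, 199.4 and 196.8 in VSMC against 2.83 and 1.95 in pericytes (log2 FC 6.94, SE 0.658, adjusted p = 0.000883), *Kcna5*, a voltage-gated pore subunit, at 157.6, 166.5 and 301.1 against 26.8 and 34.4 (2.77, adjusted p = 0.0387), and *Kcnma1*, the pore of the calcium-activated BK channel, at 22.7, 23.9 and 17.9 against 0.0319 and 0.243 (7.77, adjusted p = 0.0197). The call of *Kcna5* was lost without Acta2GFP and without PdgfrbGFP, and that of *Kcnma1* without Acta2GFP. The BK accessory subunit *Kcnmb1* was at 128.8, 93.7 and 136.9 against 42.3 and 32.9 (log2 FC 1.47, not called). The pair of genes that fell makes the ATP-sensitive channel: *Kcnj8*, its pore, was at 27.8, 44.5 and 24.3 in VSMC against 484 and 494 (log2 FC −3.46, adjusted p = 0.0127), and *Abcc9*, its regulatory subunit, at 23.5, 17.7 and 3.24 against 545 and 382.95 (−4.81, adjusted p = 0.0197). Both were on the list of pericyte markers.

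**Figure D2:**
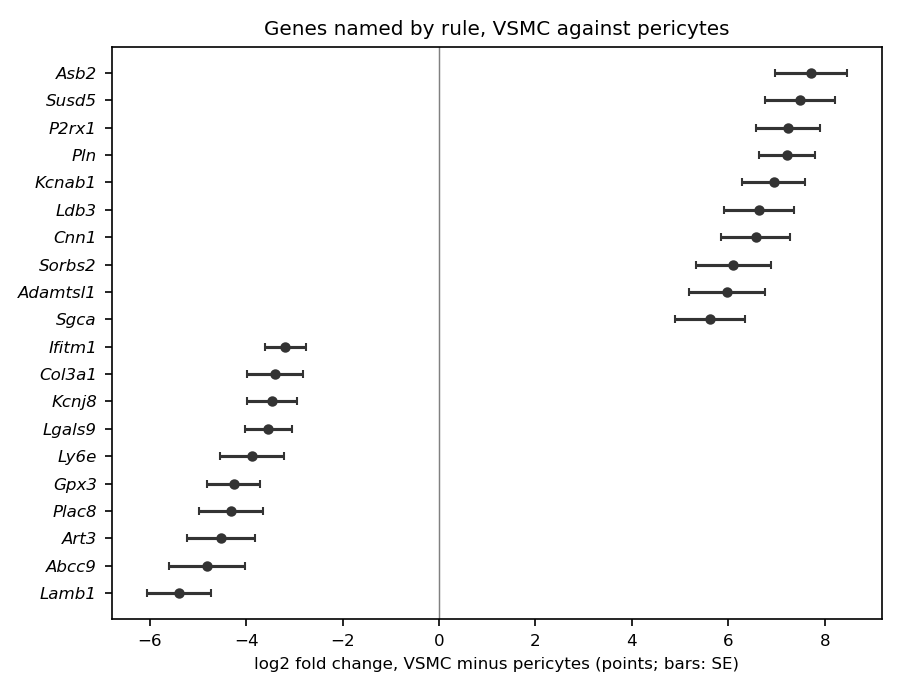
Log2 fold change of VSMC over pericytes (points) with its SE (bars) for the 20 genes named by rule, 10 in each direction. The genes run from *Lamb1* at −5.40 to *Asb2* at 7.71.

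For the Notch pathway, 2 of 14 genes tested were called higher in VSMC than in pericytes and 0 lower. *Nrip2*, which encodes a nuclear receptor interacting protein, was at 532, 519 and 512 in VSMC against 106.03 and 46.6 (log2 FC 3.13, SE 0.471, adjusted p = 0.0127), the most even of the levels over lines in this list. *Nrarp*, a feedback inhibitor of Notch, was at 75.03, 73.1 and 80.4 against 11.3 and 10.3 (log2 FC 3.83, adjusted p = 0.0329), but 5 of 9 alternatives lost this call. The receptor itself, *Notch3*, was at 900 and 511 in pericytes, above every VSMC line, without passing the test (log2 FC −1.22, adjusted p = 0.331). The target *Heyl* was at 222.02, 165.8 and 180.9 in VSMC against 460 and 166.6 (−0.78, not called), and its direction turned without Cspg4dsRED (0.11). *Hey2*, another target, was at 110, 112.4 and 82.1 against 29.7 and 29.2 (log2 FC 1.398, adjusted p = 0.461). *Dll4*, a ligand, was at 0, 0.507 and 1.05 in VSMC and 49.1 and 17.1 in pericytes, and *Jag1*, another ligand, at 51.2, 66.2 and 126.2 against 46.3 and 103.2. Thus the VSMC lines lay above the pericyte lines for 3 transcripts named here (*Nrip2*, *Nrarp* and *Hey2*) and below them for the receptor *Notch3* and the ligand *Dll4*.

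The promoter of *Hey2* is shown for this pathway, 250 to 51 bases before the start at chr10:30842834-30843033 (minus strand, RefSeq, GRCm38.p6), with a match to TGGGAA, a core of the site bound by the Notch effector Rbpj, in capitals on the reverse strand.
Hey2: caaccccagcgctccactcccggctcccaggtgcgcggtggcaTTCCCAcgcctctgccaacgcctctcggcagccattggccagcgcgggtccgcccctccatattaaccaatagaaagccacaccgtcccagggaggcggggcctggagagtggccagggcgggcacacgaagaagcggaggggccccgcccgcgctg
TGGGAA on either strand was present in 3 of 13 promoters of the 11 matched Notch genes (23.1%) and in 21.6% of all promoters, so a match of this short sequence was as common in the list as elsewhere.

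Of 39 vasoactive receptor genes tested, 1 was higher in VSMC than in pericytes, 2 were lower and 36 were not called. *P2rx1*, the ATP-gated cation channel of sympathetically innervated smooth muscle, was at 397.3, 320 and 342.6 in VSMC against 2.13 and 9.74 in pericytes (log2 FC 7.24, SE 0.667, adjusted p = 0.000883). *Agtr1a*, the angiotensin II receptor, was at 2.46, 0 and 0.574 in VSMC and 143.2 and 138.2 in pericytes (log2 FC −7.00, SE 1.28, adjusted p = 0.0315). *Ednrb*, the endothelin B receptor, was at 11.7, 6.69 and 23.5 against 279.4 and 223.6 (−4.35, adjusted p = 0.0104), while *Ednra*, the endothelin A receptor, was at 398.8, 478.3 and 344.1 against 749 and 349.3 (−0.35, not called). *S1pr3*, a receptor for sphingosine 1-phosphate, was at 436.3, 576 and 425.4 against 63.8 and 53.7 (log2 FC 2.42, adjusted p = 0.074, and 0.012 with the line as a block), and *Npy1r*, a receptor for neuropeptide Y, at 93.2, 146.8 and 242.1 against 19.7 and 52.7 (2.22, adjusted p = 0.182). *Gucy1a1*, a subunit of the soluble guanylate cyclase that responds to nitric oxide, was at 606, 722 and 434.5 in VSMC and 841 and 553 in pericytes (−0.17). The VSMC and pericyte lines overlapped for *Ednra* and *Gucy1a1*.

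Of the olfactory receptor genes known from blood vessels, 0 of 2 passed. *Olfr558* was at 220 and 333.9 in pericytes, 1 line below the VSMC lines and the other within their range (log2 FC 0.36, adjusted p = 0.851). These are means over cells. The summed level of both olfactory receptor genes had a mean of 374.6 and a median of 73.6 over the PdgfrbGFP pericytes, against 544.9 and 552.4 over the PdgfrbGFP VSMC. *Olfr78*, also on chromosome 7, was at 238.3, 184.97 and 202.3 in VSMC and 58.8 and 40.6 in pericytes, with no overlap of lines (2.27, adjusted p = 0.0646).

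Regulators of G-protein signalling shorten the response to such receptors. Of 12 tested, 1 was called: *Rgs5*, at 683, 769 and 1121 in VSMC, was lower than in pericytes (log2 FC −1.74, SE 0.285, adjusted p = 0.0197). *Rgs4* was at 1019, 1154 and 1052 in VSMC against 536 and 472.8 in pericytes and passed with the line as a block (adjusted p = 0.0351 against 0.19 without it). Of 33 transcription factor genes tested, 0 passed in edgeR. *Myocd*, the gene for myocardin, was at 260.95, 307.9 and 213.4 in VSMC and 48.8 and 17.1 in pericytes (log2 FC 2.62, adjusted p = 0.076, and 0.00782 with the block), and *Mef2c*, a muscle transcription factor, at 422.1, 305.7 and 314.7 against 314.8 and 220 (0.57).

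Matrix genes were lower more often than higher: of 37 tested, 1 was called higher and 5 lower (median log2 FC −1.29), and with the line as a block 2 and 11. The 8 fibroblast markers, of which *Col1a1*, *Dcn* and *Loxl1* are also in the matrix list, lay in the same direction: 0 were called, all 8 differences were negative (median log2 FC −1.82), and they summed to 917 and 2128 in pericytes against 151.4 to 864 in VSMC, with 0 markers at 0 in any of these sums. Of the 12 endothelial markers 0 were called and 1 difference was positive (median −1.38), with sums of 650 and 523.8 in pericytes against 352.02 to 421.75 in VSMC. The part of these markers in the matrix differences was not tested. The 5 called lower were basement membrane genes except *Col3a1*, the gene for the fibrillar collagen III, which was at 177.9, 35.6 and 64.5 in VSMC against 923 and 1097 in pericytes (log2 FC −3.41, adjusted p = 0.0223). *Lamb1*, the laminin β1 chain, was at 17.1, 2.50 and 6.43 against 380 and 221.3 (−5.40, SE 0.669, adjusted p = 0.00521). *Lama2*, the laminin α2 chain, was at 16.2, 4.95 and 10.3 against 230.9 and 160 (−4.33, adjusted p = 0.0104). The collagen IV chains *Col4a1* and *Col4a2* fell by 2.44 and 2.35 on the log2 scale (adjusted p = 0.0197 and 0.0319). *Lamb2*, the laminin β2 chain, was at 248.1, 205.9 and 343.7 in VSMC and 125.7 and 220.9 in pericytes (0.79, not called). The gene called higher was *Ltbp1*, which stores TGF-β in the matrix, at 419.2, 314.98 and 300.5 against 143.1 and 91.99 (2.13, adjusted p = 0.0465), and 4 of 9 alternatives lost it. *Eln*, elastin, was at 58.1, 53.2 and 68.6 in VSMC against 4.72 and 42.3, and was not called. Of 15 integrin genes tested, 2 were higher: *Itga8*, at 166.8, 146.2 and 116.7 against 6.95 and 7.09 (log2 FC 4.79, SE 0.615, adjusted p = 0.00576), and *Itga3*, at 38.1, 54.1 and 22.3 against 0.735 and 0.266 (7.61, adjusted p = 0.0276). Both encode α chains that pair with *Itgb1*, which was at 801, 939 and 693 in VSMC and 624 and 626 in pericytes (0.55, not called).

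*Fgf1*, the gene for acidic fibroblast growth factor, was at 165.5, 148.3 and 163.9 in VSMC against 7.15 and 19.6 in pericytes (log2 FC 4.12, adjusted p = 0.0229), and its call was lost without Acta2GFP. Among the genes lower in VSMC by the largest folds were *Art3* (−4.52), an ADP-ribosyltransferase gene, *Plac8* (−4.32), *Gpx3* (−4.26), the secreted glutathione peroxidase, and *Ly6e* (−3.88), *Lgals9* (−3.54) and *Ifitm1* (−3.18), which are known as interferon-responsive genes. *Gpx3* was at 86.2, 15.5 and 50.7 against 942 and 956, and *Ifitm1* at 53.7, 47.03 and 91.002 against 486 and 587. Of the 15 pericyte markers tested, 5 were called lower in VSMC and 0 higher, and all 15 fitted differences were negative.

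A list of 16 immediate early and heat shock genes, which tissue dissociation is known to induce, moved with the same contrast. Of the 16 tested, 5 were called higher in VSMC (*Fosb*, *Junb*, *Ier2*, *Atf3* and *Zfp36*), 0 lower, and all 16 differences were positive (median log2 FC 2.07, against 0.03 over all genes). Without Acta2GFP 0 were called, and with the block 11. Pericytes have no replicate without Cspg4dsRED, so that count is not given. The summed level was 12540 ± 3546 in VSMC (8457 to 14842 over 3 lines), 2465 ± 95.2 in pericytes (n = 2), 5238 ± 695 in fibroblasts (n = 4) and 9658 in interstitial SMC. *Atf3* was at 837, 696 and 382.8 in VSMC against 26.6 and 81.01 in pericytes (log2 FC 3.71, adjusted p = 0.0194). The part of these genes in the contractile and receptor differences above was not tested.

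VSMC and pericytes also differed in RNA per cell, as the ratio of counts on genes to counts on the ERCC spike-in RNAs of the lysis buffer. On the 3 plates with at least 10 cells of both classes, the median ratio was 59.97 in VSMC and 29.5 in pericytes (colon_516s), 65.8 and 32.3 (colon_685s), and 87.9 and 49.8 (colon_686s). VSMC thus held 1.94 ± 0.155 times the ratio of pericytes (SD, n = 3 plates), and the direction was the same on each plate. Levels per 500000 counts do not carry this difference, so a gene at equal level in both classes had more counts per spike-in in VSMC. Against fibroblasts, VSMC had the lower median ratio on 4 of 5 plates: fibroblasts were at 60.1 (colon_513s), 100.8 (colon_682s), 69.3 (colon_685s) and 128.6 (colon_686s), and at 56.1 on colon_516s, where VSMC were higher by the median but lower by the ratio of summed counts (63.7 against 66.7). Against interstitial SMC, VSMC were at 40.9 and 46.2 on plate colon_513s and at 80.8 and 55.6 on plate colon_682s, in that order, and the ratio of summed counts turned the first of these (49.4 and 48.9).

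**Figure D3:**
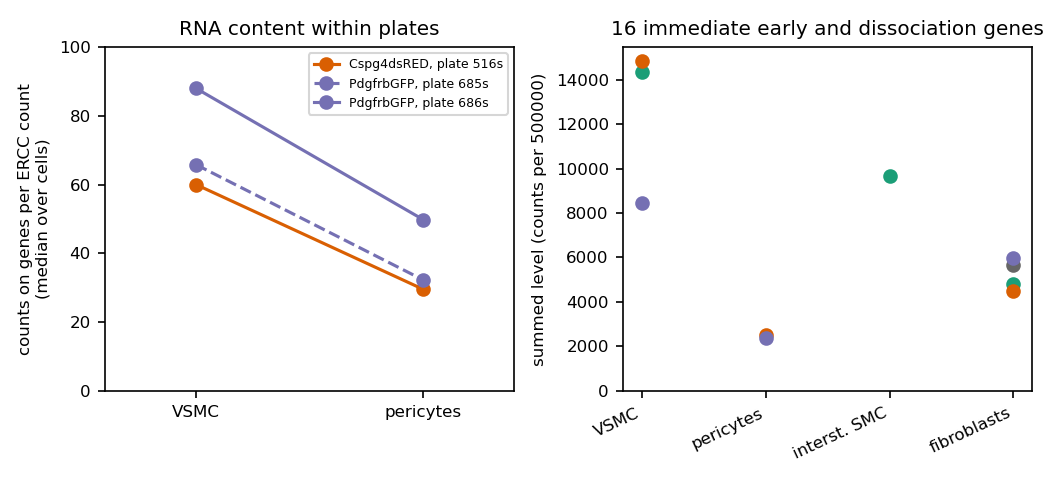
Left, counts on genes per ERCC count (median over cells) in VSMC and pericytes on the 3 plates with at least 10 cells of both; right, summed level of 16 immediate early and heat shock genes (counts per 500000) by class, with 1 point per line. The VSMC points lie above the pericyte points on each plate and, for the summed level, in each line.

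Compared with interstitial SMC, VSMC were higher in 5 of 14 Notch pathway genes, both vascular olfactory receptor genes and 2 of 14 potassium channel genes, while 1 of 25 contractile genes was called. Interstitial SMC reached 10 cells in Acta2GFP alone (52 cells, 1 sum), so this class has no replicate, and the fit assumes that it varies like the others. Every adjusted p against interstitial SMC rests on this sum and this assumption. Of 16328 genes tested, 0.643% were higher in VSMC and 0.398% (65 genes) lower. With the line as a block, 0.661% were higher and 0.122% lower. The fit gave a median log2 FC of 0.31 over all genes. Of 15 pericyte markers, 4 were called higher in VSMC (*Rgs5*, *Cspg4*, *Cox4i2* and *Ndufa4l2*) and 2 lower (*P2ry14* and *Postn*), while their sum was 1760 to 2605 in VSMC and 3100 in interstitial SMC. Of 12 endothelial markers 8 differences were positive and 0 were called (median 1.79), with sums of 352.02 to 421.75 against 161.1, and all 6 immune markers tested had positive differences with 0 called, on sums of 2.09 to 22.6 against 0.311. *Postn* made up most of the pericyte marker sum in interstitial SMC and little of it in VSMC. The part of the pericyte, endothelial and immune markers in the calls was not tested.

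Of the 25 contractile genes tested, 1 was called, as higher in VSMC: *Des*, the intermediate filament desmin, was at 1068, 1261 and 1149 in VSMC and 200.5 in interstitial SMC (log2 FC 2.79, SE 0.541, adjusted p = 0.0313). *Myh11* was at 1891 in interstitial SMC, inside the VSMC range (0.05, adjusted p = 1, and negative under 4 alternatives). *Acta2* was at 5114 (−0.67, adjusted p = 0.821), *Cnn1* at 985 (−1.71, adjusted p = 0.323) and *Actg2*, the enteric smooth muscle γ-actin, at 1667 against 268.4, 256.1 and 159.2 in VSMC (−2.61, adjusted p = 0.314). The last 3 levels lay above every VSMC line without passing the test. *Pln* was the 1 of 24 calcium genes called (log2 FC 7.17, SE 0.801, adjusted p = 0.00277), while *Casq2*, the calcium buffer of the sarcoplasmic reticulum, was at 55.98, 228.3 and 170 in VSMC and 440 in interstitial SMC.

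The Notch pathway had 5 of 14 genes called higher in VSMC and 0 lower (median log2 FC 2.51, against 0.31 over all genes). *Notch3* was at 0.229 in interstitial SMC (log2 FC 9.27, SE 0.990, adjusted p = 0.00247), *Heyl* at 0.515 (8.28, adjusted p = 0.00469), *Hey2* at 0.408 (6.39, adjusted p = 0.0227), *Nrarp* at 0.601 (6.74, adjusted p = 0.0166) and *Nrip2* at 3.53 (6.70, adjusted p = 0.00288). For comparison, *Hes1*, a target of Notch and of other pathways, was at 375.6, 211.4 and 261.2 in VSMC and 116.7 in interstitial SMC (0.97, not called). With at least 3 cells per sum, *Hey2* was no longer called. The transcription factors *Ebf1* (4.94) and *Foxs1* were also higher, making 3 of 33 with *Heyl*. *Foxs1* was at 82.8, 58.1 and 106.2 against 0.272, from 3 counts in all interstitial SMC of the fit, so no fold is given.

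Both vascular olfactory receptor genes were higher in VSMC than in interstitial SMC. *Olfr558* was at 0.451 in the latter (log2 FC 8.86, SE 0.866, adjusted p = 0.00247) and *Olfr78* at 0.533 (7.58, adjusted p = 0.00288). Of 39 vasoactive receptors, 4 were higher and 2 lower. *P2rx1* was at 0.401 in interstitial SMC (log2 FC 9.33, adjusted p = 0.00277), *S1pr3* at 1.91 (7.62) and *Npy1r* at 1.96 (6.12), while *Ptgir*, the prostacyclin receptor, was at 63.8, 51.1 and 46.6 in VSMC against 0.209. *F2r*, the thrombin receptor, was at 23.7, 12.2 and 10.1 in VSMC against 1159 (−6.71, adjusted p = 0.00668, and 0.0763 with the line as a block). *P2ry14*, the receptor for UDP-sugars, was at 30.5, 25.2 and 49.9 against 303.5 (−2.92, adjusted p = 0.0223, and 0.172 with the block). Potassium channel genes gave 2 of 14 higher, *Kcna5* (0.591 in interstitial SMC, log2 FC 7.91) and *Kcnab1* (0.693, log2 FC 7.15), and 0 lower. *Kcnma1* was at 53.3 in interstitial SMC against 17.9 to 23.9 in VSMC (−0.36, not called).

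Among RGS genes, 3 of 12 were higher in VSMC, *Rgs4* (5.15 in interstitial SMC, log2 FC 7.07), *Rgs5* (2.43) and *Rgs7bp*, which anchors a group of RGS proteins at the membrane (0.240, log2 FC 8.14), and 1 was lower, *Rgs10*, at 4.07, 0.887 and 7.93 against 470 (−6.84, adjusted p = 0.00492, and 0.0617 with the block). Of other genes, *Gja4*, the gap junction protein connexin 37, was at 270, 270 and 287.6 in VSMC against 0.653 (8.04, adjusted p = 0.00247) and at 326.8 and 282.1 in pericytes (−0.01). *Dgkg* (9.01), a diacylglycerol kinase gene, *Cystm1* (8.70), *Amigo2* (8.54), an adhesion molecule gene, and *Tesc* (8.32), for a calcium-binding protein, were higher as well. *Susd5* and *Map3k7cl* were each at 0.108 in interstitial SMC, from 2 counts, and were called without a fold being given here. *Map3k7cl* was no longer called with the line as a block (adjusted p = 0.106).

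*Hhip*, the hedgehog interacting protein, was at 2.35, 0 and 0.418 in VSMC against 1339 in interstitial SMC (log2 FC −10.79, SE 1.30, adjusted p = 0.00334). *Postn*, periostin, was at 86.4, 5.50 and 11.7 against 2443 (−6.68, adjusted p = 0.00663), and *Lamb1* at 376.97 in interstitial SMC (−5.98, adjusted p = 0.00337). Also lower in VSMC were *Agt* (−7.31), angiotensinogen, *Ncam1* (−5.82), the neural cell adhesion molecule, *Bmp4* (−5.64), *Dkk3* (−5.20) and *Spon2* (−4.55). With the line as a block, *Agt* (adjusted p = 0.0621), *Bmp4* (0.0537), *Dkk3* (0.392) and *Spon2* (0.211) were no longer called, and *Hhip*, *Postn*, *Lamb1* and *Ncam1* were. Matrix genes gave 0 of 37 higher and 5 lower, *Col1a2*, *Col3a1*, *Col6a1*, *Lamb1* and *Nid1*, of which *Col1a2* (0.0677) and *Nid1* (0.316) were lost with the block. All 8 fibroblast markers also had negative differences (median log2 FC −2.03, against 0.31 over all genes) and 0 were called, with a sum of 1410 in interstitial SMC against 151.4 to 864 in VSMC, and their part in the matrix differences was not tested. Immediate early genes gave 0 of 16 in either direction (median log2 FC 0.89).

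**Figure D4:**
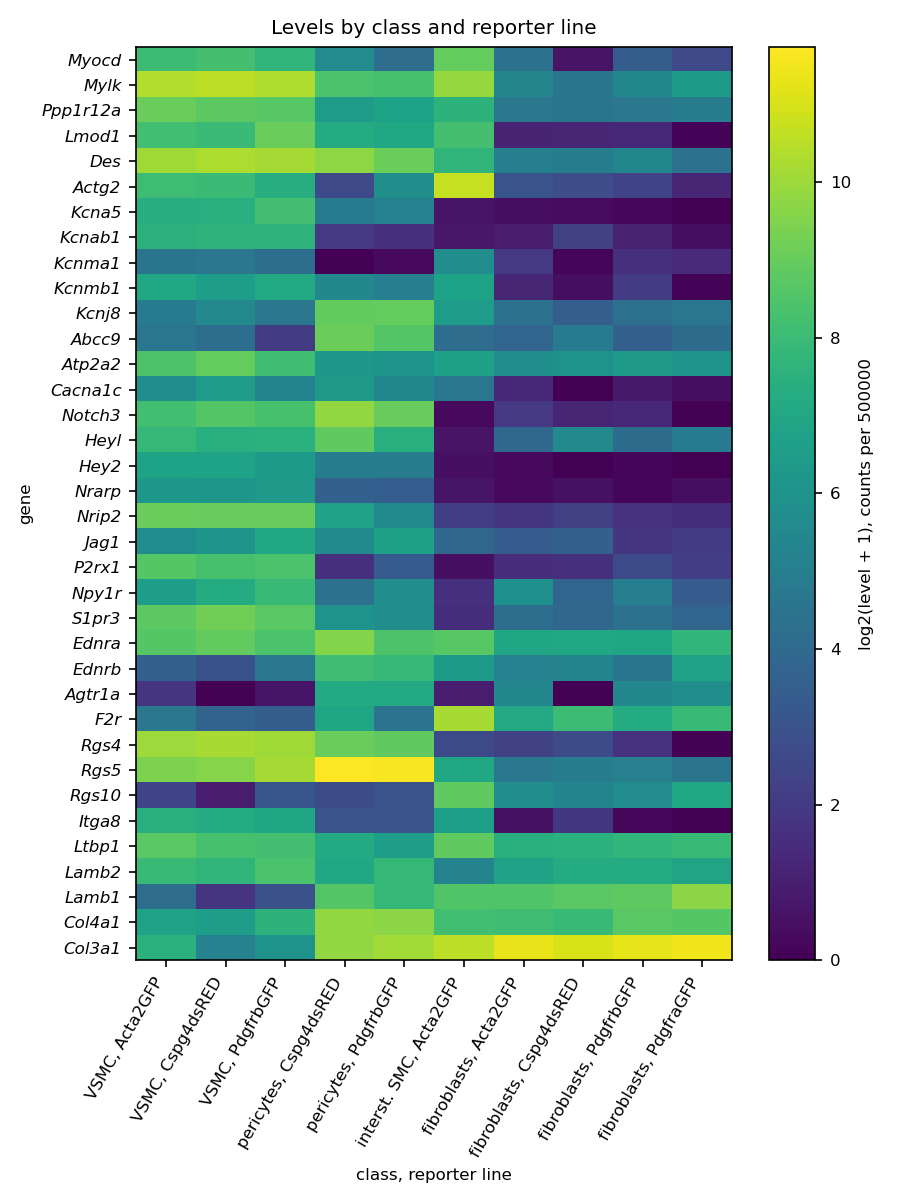
Heat map of log2(level + 1), with the level in counts per 500000, for 36 genes of the text (rows) in each class and reporter line (columns). The interstitial SMC column is near 0 for *Notch3*, *Hey2* and *P2rx1*, and the pericyte columns are near 0 for *Kcnma1*.

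Against fibroblasts the differences were wide. The 3 VSMC sums were compared with 4 fibroblast sums, and of 17267 genes tested 948 were higher in VSMC (5.49%) and 1376 lower (7.97%) in edgeR. With the line as a block the counts were 561 and 739. Fibroblast levels are given as mean ± SD over 4 lines.

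Of 25 contractile genes, 23 were higher in VSMC and 0 lower (median log2 FC 3.39, against −0.08 over all genes). *Myh11* was at 13.6 ± 7.21 in fibroblasts (log2 FC 7.33, SE 0.546, adjusted p = 6.11e-05), *Cnn1* at 1.91 ± 1.05 (7.69, adjusted p = 3.05e-05), *Lmod1*, leiomodin, at 1.04 ± 0.654 (8.81, adjusted p = 0.000198) and *Acta2* at 145.2 ± 38.3 (4.49, adjusted p = 9.09e-05). The 2 that did not pass were *Vcl* (1.18) and *Ppp1r14a* (0.96), the latter an inhibitor of myosin phosphatase. Calcium genes gave 15 of 24 higher and 1 lower, *Itpr2* (−3.68), an inositol trisphosphate receptor. *Pln* was at 1.87 ± 1.60 in fibroblasts (8.36, adjusted p = 9.43e-05) and *Cacna1c* at 0.667 ± 0.649 (7.31, adjusted p = 0.00125).

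Potassium channel genes gave 8 of 14 higher and 0 lower, led by *Kcna5* (10.51, adjusted p = 0.000386), which was at 0.199 ± 0.149 in fibroblasts. *Kcnk3*, a background potassium channel, was at 23.6, 48.9 and 74.4 in VSMC (7.56, adjusted p = 0.000871). For the Notch pathway, 8 of 14 were higher and 1 lower, *Dll1* (−7.21). *Hey2* was at 0.0943 ± 0.111 in fibroblasts (10.03, adjusted p = 0.000457), *Notch3* at 1.41 ± 1.15 (8.31, adjusted p = 0.00224) and *Nrip2* at 2.60 ± 0.779 (8.05, adjusted p = 1.43e-05). *Heyl* was higher than in fibroblasts (3.16, adjusted p = 0.000354), where it was at 25.5 ± 13.8. *Jag1* was at 6.62 ± 4.39 in fibroblasts (3.98, adjusted p = 0.0015).

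Vasoactive receptors gave 9 of 38 higher and 4 lower. *Adra1a*, an α1-adrenergic receptor gene, was at 54.5, 26.3 and 28.2 in VSMC and 1.19 in fibroblasts (log2 FC 6.001), and *Gucy1a1* rose by 2.44 on the log2 scale. Transcription factor genes gave 10 of 33 higher and 1 lower, with *Myocd* at 8.93 ± 8.52 in fibroblasts (5.27, adjusted p = 0.00194), *Mef2c* at 9.70 ± 2.76 (5.36, adjusted p = 0.000581) and *Hic1* at 61.3 ± 19.3 against 1.73, 0.0369 and 0.996 in VSMC (−6.06, adjusted p = 0.00157). Both olfactory receptor genes were higher (*Olfr558* 9.69, *Olfr78* 9.42). Matrix genes were lower in 24 of 37 and higher in 3, *Sparcl1* (1.91, adjusted p = 0.00241), *Lamb2* (1.07, adjusted p = 0.0267) and *Ltbp1* (0.90, adjusted p = 0.038). The last 2 did not pass with the line as a block (adjusted p = 0.0878 and 0.0852). *Sparcl1*, a secreted relative of osteonectin, was at 3116, 3448 and 2179 in VSMC and 787 ± 247.5 in fibroblasts. Of integrins, 6 of 15 were higher, *Itga8* (9.37) and *Itga7* (6.04) among them, and 2 lower. Among the largest negative differences were *Dpep1* (−6.48), a membrane dipeptidase gene, *Pdgfra* (−6.38), *Lepr* (−6.26), the leptin receptor, and *Lamb1* (−6.25). *Pdgfra* was at 10.8, 0.452 and 2.12 in VSMC and 302.5 ± 55.01 in fibroblasts. Immediate early genes gave 7 of 16 higher and 0 lower.

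Among VSMC themselves, lines were compared on the plates with at least 10 VSMC: colon_513s and colon_682s of Acta2GFP against colon_685s and colon_686s of PdgfrbGFP. The clusters were not drawn from this contrast. Of 14724 genes tested by edgeR, 0 passed in either direction (percent called 0.0), 896 had an unadjusted p under 0.05, and the smallest adjusted p was 0.782, for *Nr4a1*, an immediate early nuclear receptor gene. DESeq2 called 1.34% of these genes higher and 0.883% lower in Acta2GFP, and limma none. *Nr4a1* was at 3538 and 2137 on the Acta2GFP plates, 508 and 638 on the PdgfrbGFP plates and 3225 on the Cspg4dsRED plate (log2 FC 2.40). *Btg2* was at 1673 and 1294 against 627 and 528, and *Rasd1*, a glucocorticoid-induced small G-protein gene, at 828.7 and 1025 against 351.2 and 373.6. *Actn1*, α-actinin, went the other way, with 40.7 and 33.9 against 89.2 and 340 (−2.51). None of these 4 genes passed the test, so their values by plate are a description only. Of the 16 immediate early and heat shock genes, 14 had a positive difference (median 0.85, against −0.13 over all genes). The fibroblast markers had 7 of 8 differences positive (median 2.34), with 0 called. They summed to 864 in Acta2GFP and 290 in PdgfrbGFP, with medians over cells of 577.8 and 145.97. Of 14 pericyte markers tested, 3 differences were positive (median −0.54) and 0 were called, with sums of 1760 and 2605. All 5 epithelial markers tested had negative differences (median −3.80), with sums of 2.56 and 20.1. The part of these markers in the differences between lines was not tested.

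The level of *Myh11* over single VSMC ran from 16.6 to 4979 with a median of 1684, and that of *Acta2* from 210 to 10189 with a median of 2525. *Acta2* was the most uneven of the 6 over plates, from 1412 on colon_686s to 6395 on colon_513s, and the edgeR comparison of the lines gave 1.11 (adjusted p = 0.802). The Acta2GFP line carries a reporter of this gene, and the part of the sort in this spread was not tested. *Olfr558* ran from 222.97 to 389.04 over the 5 plates, and *Pln* from 432.4 to 729.

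*Cnn1* varied widely over the VSMC of every line. It was under 10 in 49 cells and at 100 or more in 81. By line, it was under 10 in 7 of 29 VSMC of Acta2GFP, 13 of 30 of Cspg4dsRED and 29 of 82 of PdgfrbGFP. The median of *Rgs5* was higher where *Cnn1* was low: it was 1780 in the 7 cells and 55.3 in the 22 cells of Acta2GFP with *Cnn1* at 100 or more. In Cspg4dsRED it was 1082 in 13 cells and 248.5 in 15, and in PdgfrbGFP 1275 in 29 cells and 746 in 44. Between these limits of *Cnn1*, it was 276.8 in 2 Cspg4dsRED cells and 1412.9 in 9 PdgfrbGFP cells. Single cells overlapped: in PdgfrbGFP *Rgs5* ran from 269.6 to 3261.9 with *Cnn1* under 10 and from 0 to 3249.8 with *Cnn1* at 100 or more. The Spearman correlation of both genes over cells was −0.44 (n = 29), −0.64 (n = 30) and −0.47 (n = 82). Among 828 genes with at least 100 counts in at least 30% of VSMC, *Rgs5* was the gene most opposed to *Cnn1* by the weakest of the 3 correlations. Cells of a line share plates and perhaps animals, and each level is a share of the same total, so these correlations are descriptions.

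**Figure D5:**
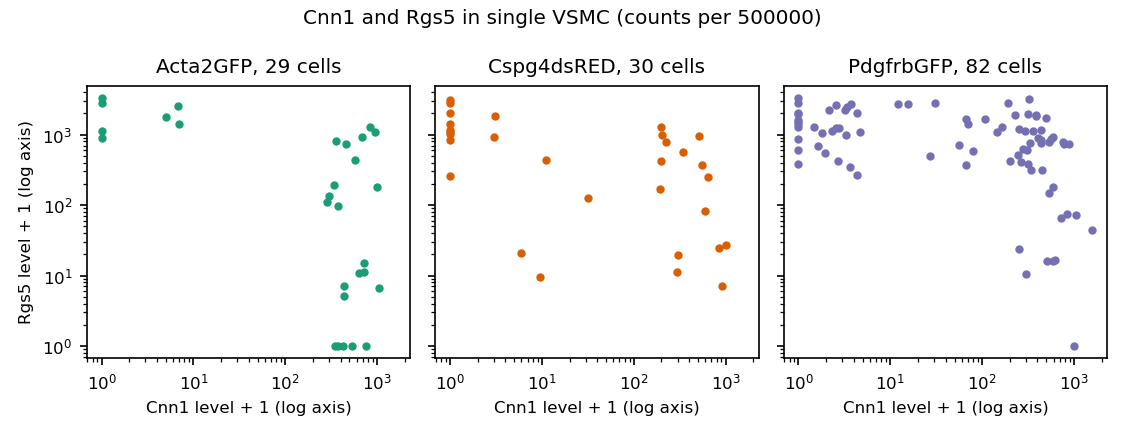
Level + 1 of *Cnn1* (horizontal) and *Rgs5* (vertical), in counts per 500000 on log axes, with 1 point per VSMC and 1 panel per reporter line (29, 30 and 82 cells). The medians of *Rgs5* are 1780, 1082 and 1275 in cells with *Cnn1* under 10 and 55.3, 248.5 and 746 in those with *Cnn1* at 100 or more.

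The genes most like *Cnn1* over cells were *Csrp1* (rho 0.42, 0.60 and 0.50 in Acta2GFP, Cspg4dsRED and PdgfrbGFP), *Sorbs2* (0.52, 0.76 and 0.40), *Myh11* (0.43, 0.46 and 0.40), *Dstn*, an actin-severing protein gene (0.39, 0.69 and 0.43), and the mitochondrial gene *mt-Nd6* (0.37, 0.76 and 0.36). Among the 8 genes most opposed to it were the immediate early gene *Egr1* (−0.30, −0.38 and −0.25) and the ribosomal protein genes *Rpl9* (−0.30, −0.45 and −0.25) and *Rps18* (−0.25, −0.24 and −0.32), and their part in the spread of *Cnn1* was not tested. *Rgs5* did not follow the pericyte channel gene *Kcnj8* within VSMC (0.02, −0.01 and 0.08) nor *Myh11* (−0.23, −0.04 and 0.01). In the cells with *Cnn1* under 10, the median of *Myh11* was 1384, 1672 and 1300 in the 3 lines, against 1896, 2401 and 1698 in those with *Cnn1* at 100 or more, and against a median of 59.9 over pericytes. *Actg2* was uneven in another way: its median over the VSMC was 4.17, with 79 cells under 10, 54 at 100 or more and 25 at 500 or more.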

How the data were processed

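The values are read counts per gene and cell, made by the authors and deposited as raw counts: SmartSeq2 libraries were sequenced with single reads, aligned to GRCm38 with TopHat2 and counted with featureCounts (Subread), without molecular identifiers. The authors removed cells of low or very high gene number and high ERCC or mitochondrial share, cells with neither *Pdgfra* nor *Pdgfrb*, and cells with endothelial or immune signatures, and drew the clusters from these counts. The table holds 46517 genes (46005 with a GENCODE vM21 symbol) and 92 ERCC rows, which took 1.36% of all counts and stayed out of library sizes and tests.

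The 141 VSMC were compared with 142 pericytes, 56 interstitial SMC and 1307 fibroblasts. Counts of each class and line with at least 10 cells were summed (VSMC sums: 7702545, 5661849 and 45243814 counts) and tested with edgeR 4.0.16 in R 4.3.3 (quasi-likelihood, TMM, filterByExpr, Benjamini-Hochberg adjustment, threshold 0.05). VSMC, pericytes and interstitial SMC were fitted together, VSMC and fibroblasts in another fit, and VSMC by plate in a separate one. Alternatives were DESeq2 1.42.0, limma 3.58.1 on log2 means per cell, no filter, at least 3 cells per sum, plates as replicates, the line as a block, and leaving out each line or plate. Intervals are exact binomial (Clopper-Pearson) and cover counting error only. The script for the tests was tested on simulated data.

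The reporter line pairs the sums of different classes. Within a line, deviations from the class means correlated over genes by 0.157 and 0.150 for VSMC and pericytes (Cspg4dsRED, PdgfrbGFP), and by 0.136, 0.143 and 0.163 for VSMC and fibroblasts.

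The members and gene lists were chosen with earlier results of these data known. Genes were named by rule: the 6 markers; in each comparison the 10 genes per direction with the largest log2 FC among those with adjusted p under 0.05, a log2 FC of at least 2, at least 100 counts in at least 30% of cells of the higher class, and no line holding both classes that ran the other way; and from each list the called members and the 4 with the highest VSMC level. Others in the text were chosen after their values were seen. Positions are from GENCODE vM21 (GRCm38) and promoter sequences from RefSeq (GRCm38.p6). Some genes are not reported here.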

Additional observations from a re-analysis of the deposited data

Results flagged for a closer look

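Levels of 25 named genes and the count ratio to ERCC spike-ins were checked over the 5 plates with at least 10 VSMC, and 2 of these 26 values had 1 plate far from the rest. By chance about 1 in 20 such groups has one. *Heyl* was at 410.02 on plate colon_513s and at 107.1 to 165.8 on the other plates, a gap of 0.806 of the whole range. *Map3k7cl* was at 168.66 on plate colon_686s and at 32.1 to 70.5 on the others, a gap of 0.719 of the range.

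Of 25 genes checked for VSMC minus pericytes in each line, 2 moved in opposite directions. For the 10 genes named by rule as higher than in pericytes, the same direction in both lines was a condition of naming. The check could not find a difference in those genes. The level of *Heyl* in VSMC was lower than in pericytes in Cspg4dsRED (difference −294.25) and higher in PdgfrbGFP (14.3). *Trarg1* differed by −30.6 in Cspg4dsRED and by 62.99 in PdgfrbGFP. The difference between the lines was not tested.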

How the results depend on the processing

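Shares of genes called are given as percent of the genes tested in the reported fit, higher and then lower in VSMC. Against pericytes the reported 0.404 and 0.263% became 3.23 and 2.69% with DESeq2, 1.48 and 1.42% with no filter, 0.992 and 0.955% with plates as replicates, and 0.0% in both directions with limma. Leaving out a line gave 0.147 (without Acta2GFP) to 1.34% (without Cspg4dsRED) higher and 0.122 to 1.21% lower, with 1.02 and 0.851% without PdgfrbGFP. Against interstitial SMC the reported 0.643 and 0.398% became 3.93 and 1.96% with DESeq2, 1.47 and 1.43% with no filter and 1.54 and 1.57% with plates as replicates, and limma called 1.04% lower. Without PdgfrbGFP and without Cspg4dsRED they were 1.26 and 2.18% higher and 1.06 and 2.24% lower. Leaving out Acta2GFP was not possible there, since it holds the only sum of interstitial SMC. Against fibroblasts the reported 5.49 and 7.97% became 10.0 and 13.3% with DESeq2 and 8.69 and 12.9% with plates as replicates. Without PdgfrbGFP they were 2.8 and 2.68%, without Acta2GFP 2.85 and 3.93%, and at most 6.13 and 8.25% over the lines left out. Between the VSMC of Acta2GFP and PdgfrbGFP, 0.0% became 1.34 and 0.883% with DESeq2 and 0.224 and 0.129% with no filter, and leaving out a plate gave 0.0 to 0.0204% higher and 0.0 to 0.00679% lower. The cause of these changes was not tested.

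With the line as a replicate block, 0.649% of genes were higher than in pericytes, 0.122% lower than in interstitial SMC, and 3.25 and 4.28% higher and lower against fibroblasts.

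Signs turned in a few genes that were not called. *Heyl* against pericytes was −1.35 to 0.11 over the lines left out. *Myh11* against interstitial SMC was −0.0178 with at least 3 cells per sum, −0.0391 with limma, −0.15 with the block and −0.24 to 0.22 over the lines left out. Between the VSMC of Acta2GFP and PdgfrbGFP, *Notch3* was −0.28 with at least 3 cells per sum, −0.0725 with limma and −0.45 to 0.63 over the plates left out (lowest without colon_513s), and *Myh11* was −0.0263 to 0.68 over them (lowest without colon_513s). The level of *Olfr558* was 245.6 by the median over cells. The VSMC to pericyte ratio of counts per ERCC count was 1.86 on colon_516s and 1.74 on colon_685s from summed counts, against 2.03 and 2.04 from medians.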
